A study of Danio rerio with 8 samples.

Results

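Keratin genes were read out in RNA-seq libraries from 8 clutches of whole zebrafish at 2 days post-fertilization (dpf), a stage at which the body is covered by a skin of only a few cells in depth. The genes were chosen by name: every gene in the count table whose symbol is *krt* followed by a digit, or *krtt1c*, together with *cyt1*, *cyt1l* and *icn*, with keratin-associated and kinase genes left out. This gave 24 of the 32057 genes in the table, and 22 of them were tested, among 23567 genes that had a count above 1 in 4 or more libraries. The symbol *icn* stands for ictacalcin, a calcium-binding protein of the S100 family and not a keratin, so the set holds 23 keratin genes, 21 of them tested, and *icn*.

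Of the 8 clutches, 4 (S2, S4, S5 and S8) came from parents homozygous for the hu2787 nonsense allele of *fmr1*, and 4 (A, D, G and L) came from wild type parents. One label field spells the mutant allele as h2787. No 2 clutches shared a parent, and no clutch received a drug or other treatment. Each library was made from poly-A RNA of the pooled embryos of 1 clutch, so a clutch was the replicate (*n* = 4 per genotype), and in such bulk samples fewer cells of a type and less RNA per cell cannot be told apart. Both genotypes descended from 1 imported population in which some fish carried the recessive w2 (*nacre*) allele of *mitfa*, a pigment cell gene. No parent of these clutches was homozygous for that allele. The authors state that some of the clutches examined carried it, and that by a later check it had no great effect on their transcriptome results. Which clutches carried it is not given here.

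Total counts lay between 29296538 and 33205738 per library. The mean of *fmr1* was 21.4 ± 2.02 CPM (the read count scaled to a common library size, SD over 4 clutches) in the mutant clutches, against 49.9 ± 3.13 CPM in the wild type, and the genotypes did not overlap. On the first principal component of all genes the wild type libraries A (score 57.4) and D (62.3) stood apart from the other 6, which lay between −42.5 (S8) and 4.23 (S5). The fit was therefore repeated without A and D, and its values stand beside the results below. It set the 4 mutant clutches against G and L only. At an unadjusted *p* below 0.05 (edgeR) it called 1.56% of all genes lower and 3.78% higher. With all 8 clutches these were 5.19% and 4.22%. A and D also had the highest *krt4*, so a smaller keratin difference without them follows in part from leaving them out. It is no independent check. All CPM values below were normalised by TMM, and a log2 fold change is mutant over wild type, with its standard error (SE). The TMM factors were 1.119, 1.11, 0.8907 and 1.038 in S2, S4, S5 and S8. In A, D, G and L they were 0.9545, 1.046, 0.9651 and 0.9044. An order of clutches in CPM can therefore differ from their order as a share of total counts.

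Keratins are the intermediate filament proteins of epithelial cells. A filament needs both an acidic (type I) and a basic (type II) keratin, so the genes are read in pairs, and the filaments are anchored at desmosomes between cells and at hemidesmosomes on the basement membrane. The skin of the early zebrafish has an outer layer, the periderm, which derives from the enveloping layer of the blastula, and a basal layer beneath it. *krt4* (type II), *cyt1* and *cyt1l* (both type I) are known for their expression in the outer layer, *krt1-19e* (type I) is used as a marker of basal keratinocytes, *krt5* (type II) is expressed in the epidermis, and *krt8* (type II) and *krt18* (type I) are the pair of simple epithelia.

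Keratin transcripts were abundant and unevenly divided among the genes. Leaving out *icn*, they took 3.03% to 5.22% of all counts, 3.44% ± 0.309 in the mutant clutches, against 4.05% ± 0.961 in the wild type. *krt4* alone held between 40.95% and 52.64% of the keratin counts, and it ranked first or second among all genes by count in every clutch. The 5 keratin genes with the highest level per kb of transcript (*krt4*, *cyt1*, *cyt1l*, *krt5* and *krt1-19e*) held 86.9% to 90.6% of the keratin counts. Outer layer, epidermal and basal layer keratins were all among them.

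Per kb of transcript the mean level over 8 clutches was 7253 CPM per kb for *krt4*, 2994 for *cyt1* and 2600.3 for *cyt1l*. The next genes were *krt5* (1659 CPM per kb), *krt1-19e* (1651), *icn* (1461) and *krt91* (1205). Over the clutches the range of *cyt1* overlapped that of *cyt1l*, and the range of *krt5* overlapped that of *krt1-19e*. Within each clutch, however, *cyt1* was above *cyt1l*, also per kb (ratio in CPM 1.13 to 1.31). *krt8* (291 CPM per kb), *krt97* (157), *krt18a.1* (147) and *krt18b* (107) formed a middle group. The other 11 genes tested were below 72 CPM per kb, from *krt17* (71.6) and *krt15* (61.7) down to *krt222* (3.82) and the scarcely counted *krt99*, *krt18a.2* and *krt98*.

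**Figure D1:**
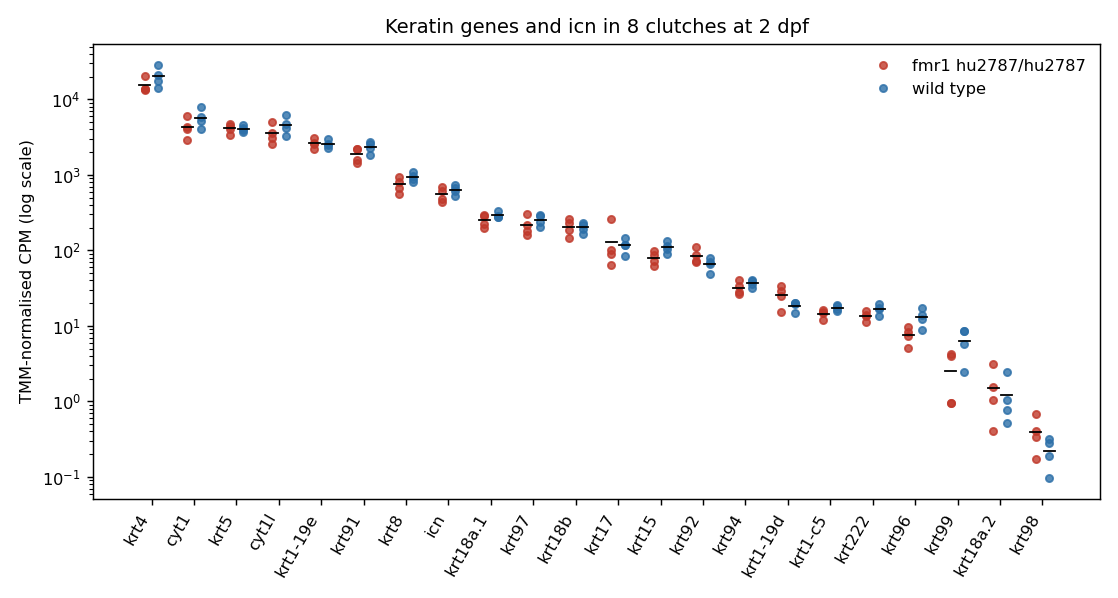
Level of each of the 22 genes tested (TMM-normalised CPM, log axis) in the 8 clutches, 1 point per clutch, with mutant and wild type clutches in separate colours. *krt4* lies between 13330 and 28806 CPM and *krt98* below 1 CPM, and the clutches of the genotypes overlap for every gene.

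No keratin gene differed between genotypes at a false discovery rate (FDR) below 0.05 in edgeR's quasi-likelihood test, adjusted by Benjamini-Hochberg over all 23567 genes. The lowest FDR among the 22 genes was 0.528 and the highest was 0.988, where 3 genes of all those tested (0.0127%) passed. At an unadjusted *p* below 0.05, 3 of the 22 (*krt96*, *krt15* and *krt99*) were lower in the mutant clutches, beside 5.19% of all genes, and 1 (*krt1-19d*) was higher, beside 4.22% of all genes. For none of the 22 did the clutches of the genotypes lie apart, beside 4.28% of all genes. The log2 fold change was below 0 for 14 genes (63.6%, beside 46.9% of all genes) and above 0 for 8. Its median was −0.23 (median SE 0.191), where the median over all genes was 0.020 (median SE 0.220).

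These counts depended on single clutches. Without S5, 10 of the 22 genes had an unadjusted *p* below 0.05 in edgeR's quasi-likelihood test, and 9 of these were lower in the mutant clutches (*krt4*, *cyt1*, *cyt1l*, *krt8*, *krt94*, *krt97*, *krt222*, *krt15* and *krt96*). Over all genes that count also moved, from 2218 of 23567 to 4588 of 23396. How many of the 4588 were lower is not given here. Without S8 there was 1 such keratin gene (*krt96*), and without S2, A or L there were 2 each. Over all genes there were 1238 of 23323 without S8 and 1522 of 23318 without S2. There were 1116 of 23386 without A and 2648 of 23365 without L. Without A and D together, 3 genes (*krt15*, *krt99* and *krt96*) were lower at that threshold, beside 1.56% of all genes. None was higher, beside 3.78% of all genes, and the median log2 fold change of the 22 genes was −0.098.

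**Figure D2:**
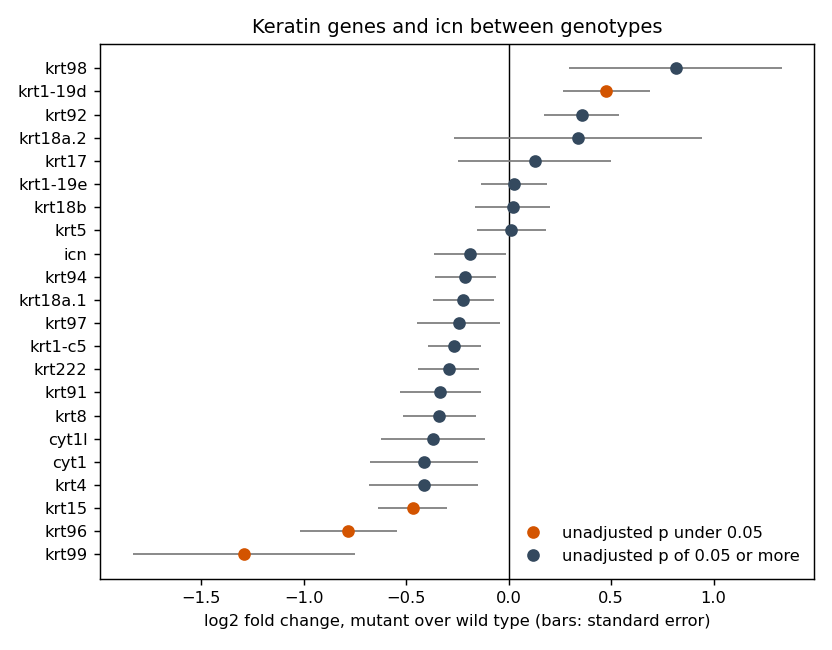
Log2 fold change, mutant over wild type, of each of the 22 genes, with bars of 1 SE. The values run from −1.29 (*krt99*) to 0.81 (*krt98*), and 14 of the 22 lie below 0.

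The most abundant keratin was *krt4* (chromosome 6, GRCz11 positions 39308498 to 39313027, minus strand). Its level was 13878, 13330, 20637 and 13533 CPM in the mutant clutches S2, S4, S5 and S8. In the wild type, A, D, G and L had 28806, 21256, 14113 and 17699 CPM. In TMM-normalised CPM, S2, S4 and S8 lay close to one another and below every wild type clutch, while S5 was above G and L. That separation depended on the TMM factors. As a share of total counts, S2, S4 and S8 each lay above G. For *krt4*, S2 had 483291 of 31122824 counts and G had 451682 of 33165593. The means were 15345 ± 3536 and 20468 ± 6277 CPM, a log2 fold change of −0.42 (SE 0.266, edgeR unadjusted *p* = 0.148, FDR = 0.610). Leaving out S5 gave −0.59 (unadjusted *p* = 0.0339 in edgeR's quasi-likelihood test), leaving out A gave −0.21, and leaving out A and D gave −0.044.

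*cyt1* (chromosome 19, 5362420 to 5364649, minus strand) had 4012, 2891, 6032 and 4248 CPM in S2, S4, S5 and S8. Its wild type levels were 7816, 5759, 4095 and 5219 CPM in A, D, G and L. The highest clutch was A and the lowest S4, 2.70-fold apart, and the genotypes overlapped through S5 and G. The log2 fold change was −0.41 (SE 0.262, edgeR FDR = 0.606), and −0.11 without A and D.

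Its neighbour *cyt1l* (chromosome 19, 5356421 to 5358455, minus strand) had 3071, 2558, 4940.4 and 3596 CPM in the mutant clutches, against 6270.3, 4662, 3249.5 and 4126 CPM in the wild type, in the same order. A was again the highest and S4 the lowest, with S5 above D, G and L. The log2 fold change was −0.37 (SE 0.255, edgeR FDR = 0.637), and −0.053 without A and D. Reads that align to more than 1 place were not counted, so the levels of these close relatives carry that uncertainty.

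For *krt5* and *krt1-19e* the log2 fold change was smaller than its SE. *krt5* (chromosome 23, 10173196 to 10177458, minus strand) had 3352, 4001, 4406 and 4696 CPM in the mutant clutches, against 4173, 3877, 3647 and 4617 CPM in the wild type. Both the lowest and the highest clutch (S2 and S8) were mutant, 1.40-fold apart. The log2 fold change was 0.012 (SE 0.168, edgeR FDR = 0.988), and 0.0017 without A and D.

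*krt1-19e*, the basal layer marker (chromosome 19, 5339364 to 5345932, minus strand), had 2233, 2580.0, 3068 and 2626 CPM in the mutant clutches, against 2530.3, 2277, 2507 and 3022 CPM in the wild type. The clutches spanned 1.37-fold and the genotypes covered nearly the same range. Its log2 fold change was 0.024 (SE 0.161, edgeR FDR = 0.973), and −0.065 without A and D.

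*krt8* (chromosome 23, 10249626 to 10254288, minus strand) had 677, 562, 934 and 811 CPM in the mutant clutches, against 1108, 888, 803 and 976 CPM in the wild type. S2 and S4 were below every wild type clutch, but S5 and S8 were not. The log2 fold change was −0.34 (SE 0.179, edgeR unadjusted *p* = 0.0853, FDR = 0.559). Without S5 it was −0.47 (edgeR unadjusted *p* = 0.018), and without A and D it was −0.25 (edgeR unadjusted *p* = 0.277). The fit without S5 was the only 1 of the 18 alternative fits with an unadjusted *p* of *krt8* below 0.05. The *krt18* genes, all at a lower level, were not alike. *krt18a.1* had a log2 fold change of −0.22 (SE 0.149, edgeR FDR = 0.630) and of −0.14 without A and D. *krt18b* was at 0.018 (SE 0.181) and the scarcely counted *krt18a.2* at 0.34 (SE 0.603). The ratio of *krt8* to *krt18a.1* in CPM lay between 2.75 and 3.52 in all 8 clutches. A ratio to the other *krt18* genes was not taken.

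*icn* (chromosome 16, 23431189 to 23432552, plus strand) had 475, 438, 701 and 615 CPM in the mutant clutches, against 735, 661, 531 and 610.4 CPM in the wild type. S2 and S4 were the lowest of the 8, and S5 and S8 lay within the wild type range. The log2 fold change was −0.19 (SE 0.176, edgeR FDR = 0.741), and −0.028 without A and D.

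The 4 genes with an unadjusted *p* below 0.05 were all scarcer. No role in the skin is given here for *krt96* and *krt99*. *krt96* (chromosome 22, 11775269 to 11779560, plus strand) had 7.32, 5.15, 9.57 and 8.39 CPM in the mutant clutches, against 12.5, 8.72, 13.9 and 17.3 CPM in the wild type. The genotypes overlapped only because S5 was above D. Its mutant level was 58.1% of the wild type level (log2 fold change −0.78, SE 0.238, edgeR unadjusted *p* = 0.00748, FDR = 0.528). The unadjusted *p* stayed below 0.05 in all 18 alternative fits, up to 0.0257, and without A and D the log2 fold change was −1.03. On the opposite strand *krt96* overlaps the gene *PTPN4*, whose reads were kept apart by strand.

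*krt15* (chromosome 11, 11515778 to 11518469, minus strand), named after a mammalian type I keratin of basal keratinocytes, had 62.7, 99.5, 86.0 and 71.5 CPM in the mutant clutches, against 115, 88.8, 105 and 134 CPM in the wild type. S2, S5 and S8 were below every wild type clutch and S4 was above D. The log2 fold change was −0.47 (SE 0.168, edgeR unadjusted *p* = 0.0181, FDR = 0.528). The unadjusted *p* was below 0.05 in 15 of the 18 alternative fits, the exceptions being those without S2, S8 or L, and without A and D the log2 fold change was −0.57.

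*krt99* (chromosome 11, 11565996 to 11575070, minus strand) was at 139, 142, 26 and 30 counts in S2, S4, S5 and S8, and at 269, 86, 182 and 224 counts in A, D, G and L. S5 and S8 were low and alike, S2 and S4 were above D, and the highest and lowest clutches were 9.03-fold apart in CPM. The log2 fold change was −1.29 (SE 0.544, edgeR unadjusted *p* = 0.0374, FDR = 0.528), and it had an unadjusted *p* below 0.05 in 12 of the 18 alternative fits. With A and D left out the log2 fold change was −1.44.

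*krt1-19d* (chromosome 19, 5324653 to 5332784, minus strand), a type I gene, went the other way. It had 24.7, 28.96, 15.5 and 34.0 CPM in the mutant clutches, against 19.8, 14.9, 19.2 and 20.1 CPM in the wild type. S2, S4 and S8 were above every wild type clutch and S5 was below all but D. The log2 fold change was 0.48 (SE 0.213, edgeR unadjusted *p* = 0.0478, FDR = 0.529), and the unadjusted *p* was below 0.05 in 9 of the 18 alternative fits. When A and D were left out the log2 fold change was 0.40 (unadjusted *p* = 0.178 in edgeR).

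Of the other genes tested, *krt91* (log2 fold change −0.33), *krt97* (−0.24), *krt94* (−0.21), *krt1-c5* (−0.26) and *krt222* (−0.29) were below 0, each with an edgeR FDR of at least 0.547. In the 6 clutches other than A and D these were −0.24 for *krt91*, −0.20 for *krt97*, −0.086 for *krt94*, −0.30 for *krt1-c5* and −0.14 for *krt222*. *krt92* was at 0.36 (SE 0.182, edgeR FDR = 0.553) and *krt18b* at 0.018 (SE 0.181), and without A and D they were at 0.18 and 0.00030. *krt17*, named after a type I keratin of mammalian skin appendages, was at 0.13 (SE 0.373), and its level in S8 (258 CPM) stood beside 63.8 to 145 CPM in the other 7 clutches. *krt18a.2* (0.34, SE 0.603) and *krt98* (0.81, SE 0.519) rested on few reads, with 11 to 96 counts and 3 to 21 counts per clutch. Without A and D, *krt17* was at −0.047, *krt18a.2* at −0.21 and *krt98* at 0.73.

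Of the 24 genes, 2 were not tested. *krt93* had 2 counts in A, 1 in L and none in the other 6 clutches. *krt95* had none in any clutch, where 3 counts correspond to 0.0861 to 0.113 CPM, a limit that covers counting error only.

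Summed over the 21 keratins tested, with *icn* left out, the level was 29560, 28369, 43425 and 33044 CPM in S2, S4, S5 and S8. In A, D, G and L it was 54720, 41969, 31356 and 39494 CPM. The highest clutch was A and the lowest S4, and S5 was above 3 of the 4 wild type clutches. As a share of all counts, without TMM scaling, the lowest clutch was G (3.026%), with S4 at 3.147%. On that scale S5 (3.868%) lay below D (4.39%). The means were 33600 ± 6844 and 41885 ± 9684 CPM, so that the mutant mean was 80.2% of the wild type mean, a log2 ratio of −0.32 that was not tested. With *icn* in the sum the log2 ratio was also −0.32. It was −0.46 without S5, −0.16 without A and −0.069 without A and D. Leaving out *krt4* as well as *icn*, the means were 18255 ± 3610 and 21416 ± 3572 CPM.

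**Figure D3:**
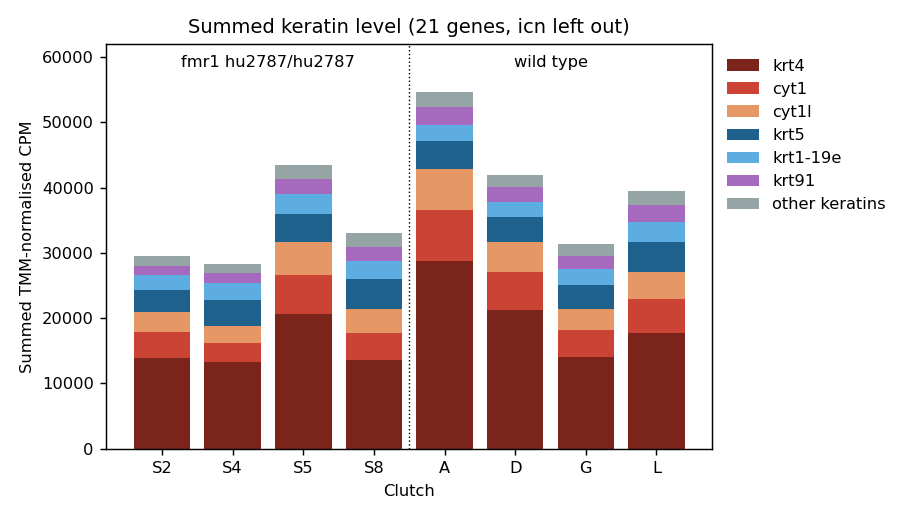
Summed level of the 21 keratin genes tested (TMM-normalised CPM, *icn* left out) in each clutch, as stacked bars from 0 with the most abundant genes shown apart. The bars run from 28369 CPM (S4) to 54720 CPM (A), and *krt4* is the largest segment in every clutch.

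The genes lie in a few clusters. On chromosome 19, 7 of them (*krt1-19d*, *krt1-19e*, *krt92*, *cyt1l*, *cyt1*, *krt17* and *krt91*) stand on the minus strand within 56118 bases, with gaps of 2680 to 6579 bases between neighbours. Chromosome 11 holds 6 (4 of them tested), chromosome 23 holds 4 (*krt5*, *krt8*, *krt18a.1* and *krt18a.2*), chromosome 22 holds 3 (*krt96*, *krt97* and *krt222*), and chromosome 6 holds *krt4* and *krt18b*. In mean summed CPM the mutant clutches were at 81.4% of the wild type on chromosome 19, at 74.5% on chromosome 11, at 83.1% on chromosome 22, at 75.2% on chromosome 6 and at 96.2% on chromosome 23, and the genotypes overlapped on all but chromosome 11. There the highest mutant clutch (S4, 130.3 CPM) lay just below the lowest wild type clutch (D, 130.8 CPM), and *krt15* made up most of the sum. Taken singly, the 4 genes tested on chromosome 11 each overlapped between genotypes, and *krt98* among them was at 0.81. The genotypes also overlapped for the single genes on chromosomes 5 (*krt1-c5*) and 16 (*icn*). Of all single genes 4.28% lay apart, and no such share was taken for sums. With A and D left out the mutant sums, as a share of the wild type, were 92.8% on chromosome 19, 71.4% on chromosome 11, 84.6% on chromosome 22, 96.5% on chromosome 6 and 96.4% on chromosome 23.

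Within the chromosome 19 cluster, some neighbours had different signs. Along the cluster the log2 fold change was 0.48 for *krt1-19d*, 0.024 for *krt1-19e*, 0.36 for *krt92*, −0.37 for *cyt1l*, −0.41 for *cyt1*, 0.13 for *krt17* and −0.33 for *krt91*. For *krt1-19e* (SE 0.161) and *krt17* (SE 0.373) it was smaller than its SE, and without A and D it changed sign (−0.065 and −0.047). Without A and D, *krt92* was at 0.18 and *cyt1l* at −0.053. *krt92* and *cyt1l* are 4221 bases apart. The ratio of *krt92* to *cyt1l* in CPM was 0.0236, 0.0335, 0.0144 and 0.0307 in the mutants, against 0.0106, 0.0103, 0.0218 and 0.0194 in the wild type. That ratio was lowest in A and D, next in S5, and it overlapped between genotypes. By contrast the ratio of *cyt1* to *cyt1l* stayed between 1.13 and 1.31 in all 8 clutches.

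**Figure D4:**
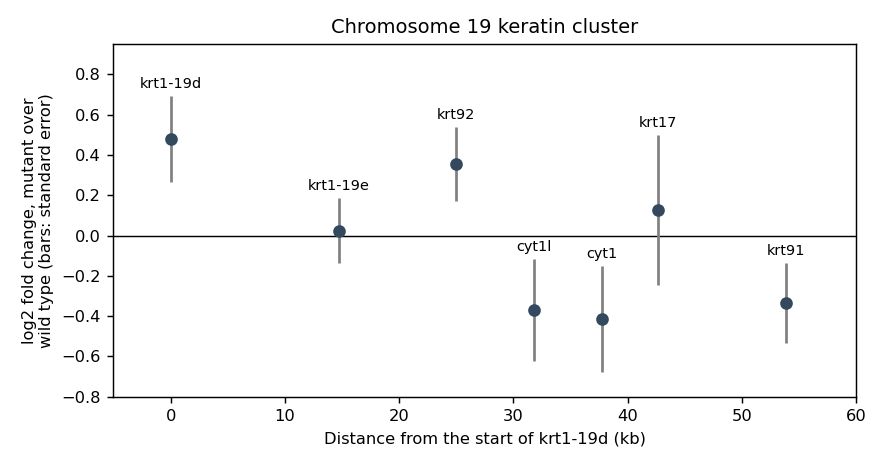
Log2 fold change (mutant over wild type, bars of 1 SE) of the 7 keratin genes of the chromosome 19 cluster against their distance in kb from the start of *krt1-19d*. *krt1-19d* (0.48) and *krt92* (0.36) lie above 0, and *cyt1l* (−0.37) and *cyt1* (−0.41) lie below it.

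Clutches differed more in some keratins than in others. The SD of log2 CPM within genotypes had a median of 0.297 over the 21 members at or above 1 CPM. It was 0.252 over all 18282 genes at or above 1 CPM, which were not matched to the keratins for level. It was lowest for *krt1-c5* (0.161), *krt1-19e* (0.179) and *krt5* (0.182), and highest for *krt18a.2* (1.03), *krt99* (1.02) and *krt17* (0.653). The outer layer gene *krt4* was at 0.375.

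The levels of several keratins followed *krt4* across the 8 clutches. The genes most like it, by Pearson's *r* of log2 CPM (*n* = 8 clutches), were *cyt1l* (*r* = 0.948, Spearman's rho = 0.905) and *cyt1* (*r* = 0.932, rho = 0.905). *krt222* (*r* = 0.895), *krt94* (0.853), *icn* (0.832), *krt8* (0.816), *krt97* (0.775) and *krt91* (0.751) followed. In all, 8 of 21 genes had an *r* to *krt4* above 0.7, beside 9.26% of all genes tested. When A and D, the clutches farthest from the median of *krt4* on this scale, were left out, *r* was 0.895 for *cyt1l*, 0.87 for *cyt1* and 0.64 for *krt91*, and between 0.749 and 0.913 for the other 5. These values share their libraries and normalisation, and are given as a description.

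Other keratins followed *krt4* less closely or ran against it. For the epidermal *krt5* and the basal *krt1-19e*, *r* was 0.235 and 0.141 over 8 clutches. In the 6 clutches other than A and D it was 0.448 for *krt5* and 0.828 for *krt1-19e*, so the value of the basal marker depended on which clutches were used. For deviations from the genotype means over all 8 clutches, *r* was 0.287 for *krt5* and 0.208 for *krt1-19e*. *krt17*, *krt98*, *krt92*, *krt1-19d* and *krt18a.2* had an *r* below 0, with *krt92* at −0.587, *krt1-19d* at −0.659 and *krt18a.2* at −0.722. Without A and D these were −0.418, −0.811 and −0.821. The share of all genes with an *r* below 0 was not taken. The ratio of *krt4* to *krt1-19e* in CPM, which does not depend on the scaling of libraries, was 6.21, 5.17, 6.73 and 5.15 in S2, S4, S5 and S8. It was 11.4, 9.34, 5.63 and 5.86 in A, D, G and L. A and D stood above the other 6 clutches, and G and L lay within the range of the mutant clutches. For *krt4* to *krt5* the ratio was likewise highest in A (6.90) and D (5.48), and lowest in S8 (2.88).

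**Figure D5:**
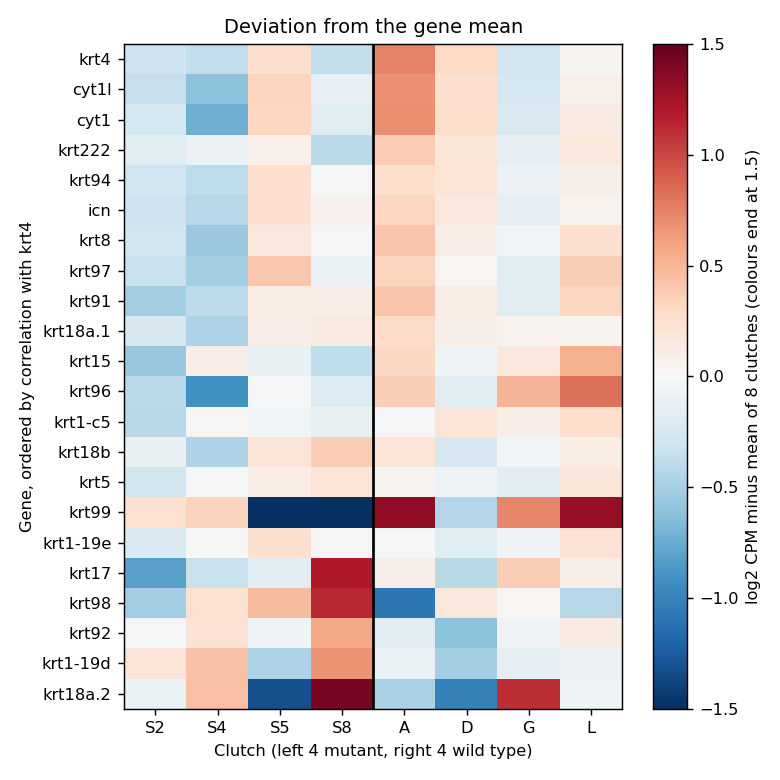
Log2 CPM of each gene minus its mean over 8 clutches, as colours, with genes ordered by their correlation with *krt4* and the 4 mutant clutches on the left. *krt4*, *cyt1l* and *cyt1* are highest in A and low in S4, and *krt18a.2*, *krt1-19d* and *krt92*, with the lowest correlations, are low in D.

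Levels of some genes of other tissues also followed *krt4*. Among the listed genes, *r* over 8 clutches was taken only for *he1.1*, *vil1* and *cldn15la*. Each of them had an edgeR unadjusted *p* below 0.05 between genotypes, so they do not stand for their lists. For *cldn15la* that *r* was −0.761 (rho = −0.881). Of all genes tested, 9.26% had an *r* to *krt4* above 0.7. No such share was taken for negative values of *r*, so none stands beside those of *cldn15la* and *vil1*. *he1.1*, an enzyme of the hatching gland that digests the egg envelope, had 92.4, 79.6, 248 and 47.5 CPM in the mutant clutches, against 611, 306, 179 and 238 CPM in the wild type. It was highest in A and lowest in S8, and its *r* to *krt4* was 0.909 (rho = 0.976, *n* = 8 clutches). Its log2 fold change was −1.51 (SE 0.506, edgeR unadjusted *p* = 0.0127, FDR = 0.528). The gene of a second hatching enzyme, *he1.2*, was at −1.499 (edgeR unadjusted *p* = 0.0184, FDR = 0.528). The hatching gland list held 10 symbols, of which 6 matched a gene and were tested. The symbols *he1a*, *he1b*, *he2* and *ctsl1b* had no match, and they may be other names of genes already listed. At an edgeR unadjusted *p* below 0.05, 2 genes were lower (beside 5.19% of all genes) and none was higher (4.22%). The median log2 fold change was −0.81. The summed level was 484 to 923 CPM in the mutant and 736 to 1292 CPM in the wild type clutches. No gene of the list lay near that median. *ctslb* was at −1.49, while *agr2* was at −0.14 and *cd63* at 0.078. The transcription factor gene *xbp1*, the most abundant of the list, was at −0.053. With A and D left out, *he1.1* was at −0.83 (edgeR unadjusted *p* = 0.149) with an *r* to *krt4* of 0.799, and *he1.2* was at −0.85. None of the 6 genes then had an unadjusted *p* below 0.05, and the median was −0.52. The other genes of the list had an *r* to *krt4* there of 0.376 (*cd63*) to 0.765 (*he1.2*).

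*vil1*, which encodes the microvillus protein villin of the gut epithelium, ran the other way. It had 11.2, 19.3, 4.97 and 29.3 CPM in the mutant clutches, against 3.34, 2.82, 9.40 and 9.29 CPM in the wild type. S8 was the highest, A and D were the lowest, and *r* to *krt4* was −0.868 (rho = −0.952, *n* = 8 clutches). Of the intestinal epithelium list 6 of 7 genes were tested and 3 were higher in the mutant clutches at an unadjusted *p* below 0.05 (*vil1* 1.39, the claudin *cldn15la* 0.81 and the cadherin *cdh17* 0.42 on the log2 scale, each with an edgeR FDR of 0.528), beside 4.22% of all genes. The median was 0.56, the most abundant gene, *fabp2*, was at −0.19, and the summed level was 157 to 323 CPM in the mutant and 180 to 286 CPM in the wild type clutches. When A and D were left out, *vil1* was at 0.81 (edgeR unadjusted *p* = 0.191) with an *r* to *krt4* of −0.806. *cldn15la* was at 0.49 and *cdh17* at 0.26, none of the 6 genes had an unadjusted *p* below 0.05, and the median was 0.23. The list was not uniform in its *r* to *krt4* there. It was −0.858 for *cdx1b*, −0.553 for *cldn15la*, −0.154 for *cdh17*, −0.114 for *foxa3* and 0.517 for *fabp2*. The part of hatching gland or gut cells in the keratin levels was not tested.

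No gene of the desmosome, periderm and barrier, basal epidermis or other intermediate filament lists had an edgeR FDR below 0.05. Of the desmosome list 6 of 12 genes were tested, 1 was lower at an unadjusted *p* below 0.05 (beside 5.19% of all genes) and none was higher. The untested genes, *dspa*, *dspb*, *jupa*, *jupb*, *pkp1b* and *pkp3b*, had no match in the name table and were not left out for low counts. All 6 genes tested had a log2 fold change below 0, beside 46.9% of all genes, but without A and D only 2 of the 6 did. The 1 gene with an unadjusted *p* below 0.05 was *perp*, which encodes a membrane protein of desmosomes. It had 119, 145, 131 and 128 CPM in the mutant clutches, against 227, 196, 139 and 166 CPM in the wild type. S4 was above G and the other mutant clutches were below all of the wild type. The log2 fold change of *perp* was −0.48 (SE 0.152, edgeR unadjusted *p* = 0.00976, FDR = 0.528), and that of *pkp3a*, a plakophilin of the desmosomal plaque, was −0.092. The median of the list was −0.13. In the 6 clutches other than A and D, *perp* was at −0.21 (edgeR unadjusted *p* = 0.167), *pkp3a* was at 0.15, and the median was 0.18.

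Of the periderm and barrier list 17 of 20 genes were tested, none was lower and 1 was higher at an unadjusted *p* below 0.05 (beside 4.22% of all genes), and the median log2 fold change was −0.080. That gene was *tgm1l1*, of the transglutaminases that crosslink proteins (0.27, SE 0.113, edgeR unadjusted *p* = 0.0346, FDR = 0.528). The most abundant were *ppl*, encoding the filament linker periplakin (−0.39, SE 0.209, edgeR FDR = 0.560), and the annexin gene *anxa1c* (−0.63, SE 0.349, edgeR FDR = 0.567). Without A and D, *tgm1l1* was at 0.26 (edgeR unadjusted *p* = 0.110), *ppl* at 0.087 and *anxa1c* at −0.070, and the median was 0.052. At an unadjusted *p* below 0.05, 1 gene of the list (*grhl1*, at 0.55, named after its value was seen) was then higher and none lower. Over all genes these shares were 3.78% and 1.56%. The summed level was 774 to 1005 CPM in the mutant and 866 to 1313 CPM in the wild type clutches.

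Of the basal epidermis list 12 of 13 genes were tested, 1 was lower and 1 higher at an unadjusted *p* below 0.05 (beside 5.19% and 4.22% of all genes), and the median was −0.038. They were *itga6b*, an integrin subunit of hemidesmosomes (−0.39, SE 0.150, edgeR unadjusted *p* = 0.0251, FDR = 0.528), and *lama3*, a laminin subunit of the basement membrane (0.87, SE 0.283, edgeR unadjusted *p* = 0.0108, FDR = 0.528). The most abundant, the claudin gene *cldni* and the hemidesmosome collagen gene *col17a1a*, were at −0.039 and 0.26. With A and D left out, 11 genes of the list were tested and none had an unadjusted *p* below 0.05, with *itga6b* at −0.080, *lama3* at 0.67 and a median of 0.032. The summed level was 1118 to 1361 CPM in the mutant and 1109 to 1280 CPM in the wild type clutches.

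Of the other intermediate filament genes 13 of 20 were tested, 2 were lower and 1 higher at an unadjusted *p* below 0.05 (beside 5.19% and 4.22% of all genes), and the median was −0.018. The summed level was 831 to 928 CPM in the mutant and 957 to 1018 CPM in the wild type clutches, so the genotypes lay apart. How often sums over other genes lie apart was not taken, and *lmnb2* and *lmnb1* were the most abundant genes of the list. *vim* and *desma* were among the genes with no match in the name table. Both lower genes encode B-type lamins of the nuclear envelope, *lmnb2* (−0.43, SE 0.139, edgeR unadjusted *p* = 0.0110, FDR = 0.528) and *lmnb1* (−0.32, SE 0.145, edgeR unadjusted *p* = 0.0481, FDR = 0.529). The higher gene was *prph*, encoding the neuronal filament protein peripherin (0.30, SE 0.113, edgeR unadjusted *p* = 0.0216, FDR = 0.528). When A and D were left out, *lmnb2* was at −0.23, *lmnb1* at −0.26 and *prph* at 0.37, and the median was −0.067. Only *prph* then had an unadjusted *p* below 0.05 (0.0211 in edgeR), beside 1.56% of all genes lower and 3.78% higher. Of the ionocyte list, the ion-transporting cells of the skin, 10 of 12 genes were tested and none had an unadjusted *p* below 0.05, beside 9.41% of all genes. Its median was −0.056, with the proton pump subunit gene *atp6v1aa* at −0.099 and the carbonic anhydrase gene *ca2* at −0.0060. In the 6 clutches other than A and D the median was −0.086. There 1 gene, *ca2*, was higher at an unadjusted *p* below 0.05 (0.57, edgeR unadjusted *p* = 0.0378), beside 3.78% of all genes. Of the notochord list 7 of 9 genes were tested and none had an unadjusted *p* below 0.05, beside the same 9.41% of all genes. Its median was 0.12, with *cmn* at −0.27 and the caveolin gene *cav1* at 0.015, and none had an unadjusted *p* below 0.05 without A and D.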

How the data were processed

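RNA-seq was done on 8 libraries, 4 mutant and 4 wild type, each from 1 clutch, as the sample labels state. The authors used AdapterRemoval for trimming and STAR (2.5.3a) for alignment to GRCz11, and counted strand-specific reads of mapping quality 10 or more per gene with featureCounts (1.5.2). Their deposited table holds raw counts per gene, without normalisation, beside other columns with the length and position of each gene as the authors' annotation gives them. Symbols were matched for 28988 of 32057 genes. *krt96* was matched by a synonym and *krt222* regardless of letter case.

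Genes counted above 1 in 4 or more libraries entered the fit, which took TMM factors and tested genotype in edgeR (4.0.16; R 4.3.3), using the quasi-likelihood test with Benjamini-Hochberg adjustment over 23567 genes. The SE was taken from the log2 fold change and the *F* statistic, and log2 CPM used a prior count of 2. Level per kb is CPM over the deposited gene length. Means are given with the SD over 4 clutches. Depth was close to even (29296538 to 33205738 counts). Alternatives were edgeR's likelihood-ratio test, DESeq2 (1.42.0), RLE and upper quartile normalisation, other filters, the replicate number as a block, and leaving out each clutch. Leaving out A and D together and the bias-adjusted quasi-likelihood test were added after seeing the data.

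The keratin genes and all lists were chosen with earlier results of these data known. Clutch values are given for members with an unadjusted *p* below 0.05, the 5 highest per kb, the 5 largest fold changes at 1 CPM or more, and *cyt1*, *icn*, *krt4*, *krt5* and *krt8*. From each other list the genes with an unadjusted *p* below 0.05 and the 2 most abundant are named. Listed genes with no match in the name table were not analysed here. This was why each untested gene of these lists was left out, rather than a low count.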

Additional observations from a re-analysis of the deposited data

Results flagged for a closer look

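In the mutant group *krt4* was at 20640 CPM in clutch S5, while the other 3 mutant clutches lay between 13330 and 13880 CPM, a gap of 0.925 of the group's range. S5 had the lowest TMM factor of all clutches (0.8907, against 1.038 to 1.119 in the other 3 mutant clutches), which widened the gap in CPM. The flag was not tried on shares of total counts. In the wild type group *krt18a.1*, an acidic keratin of simple epithelia, was at 328.3 CPM in clutch A, with the other 3 between 277.3 and 286.0 CPM, a gap of 0.83 of the range. These were found among 44 groups of 4 clutches (22 genes in both genotypes), of which chance alone flags about 1 in 20.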

How the results depend on the processing

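The number of keratin genes with an FDR below 0.05 was 0 in edgeR's quasi-likelihood test, where 4 had an unadjusted *p* below 0.05, and 0 under all 18 alternatives. The lowest keratin FDR was 0.205 with DESeq2 and 0.083 without S5. With an unadjusted *p* below 0.05 there were 4 genes under DESeq2, the likelihood-ratio test, RLE and upper quartile normalisation, 3 with a filter of 1 CPM and 3 without A and D. Over all genes these counts were 2467, 2223, 2238 and 2238 in that order, then 1731 of 18280 with the filter and 1236 of 23139 without A and D. Leaving out single clutches gave 1 to 10 genes. Over all genes it gave from 1116 of 23386 (without A) to 4588 of 23396 (without S5). With single clutches left out the median log2 fold change of the keratin genes was −0.33 to −0.13, and the log2 ratio of the summed level (*icn* included) was −0.46 to −0.16. Those fits turned the sign of *krt1-19e* (−0.059 to 0.11), *krt17* (−0.46 to 0.35), *krt18a.2* (−0.24 to 0.97), *krt18b* (−0.10 to 0.16) and *krt5* (−0.040 to 0.10). Without A and D, *krt1-19e* (−0.065), *krt17* (−0.047) and *krt18a.2* (−0.21) changed sign. The cause was not tested. With the replicate block 5 keratin genes had an unadjusted *p* below 0.05, 3 of them shared, beside 2223 of all 23567 genes. The median was then −0.25, and *krt18b* (−0.0059) and *krt17* (−0.069) changed sign. The numbers share no animals: same-numbered clutches had correlations of deviations of 0.249, −0.209, −0.0122 and 0.181, and 1 of 4 mutant clutches correlated best with its own number.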
